A study of Rattus norvegicus with 6 samples.

Results

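Fragments of the nuclear arginine tRNAs were followed in rat hippocampus after saline or nicotine. They were taken as all listed fragments whose name holds an arginine tRNA that is not mitochondrial. These were 37 of the 615 fragments listed, or 37 of the 480 from nuclear tRNAs. By anticodon, 17 came from Arg-ACG, 10 from Arg-TCG, 6 from Arg-TCT, 3 from Arg-CCG and 1 from Arg-CCT. By kind, 25 were trailers of 14 to 33 nt, 10 were 3' fragments of 17 to 22 nt, 1 was an internal fragment of 15 nt and 1 was a 5' fragment of 34 nt. Libraries of small RNA came from Sprague-Dawley rats aged 6 to 8 weeks, 3 given saline and 3 given nicotine, the addictive alkaloid of tobacco. The 2 groups share strain, tissue and age as labelled, and the sources used here give no dose, route, length of treatment or sex. All values are levels or differences of CPM, reads scaled to a common library total, or shares of reads.

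Transfer RNA genes are transcribed by RNA polymerase III, which stops in a run of T after the gene. The precursor thus carries a 3' trailer, which RNase Z cuts off directly behind the mature tRNA, and the protein La binds the U-rich end of such trailers. The CCA tail that holds the amino acid is added only afterwards, so a fragment that ends in CCA comes from a mature tRNA and a trailer comes from a precursor. Arginine is read by 5 nuclear anticodons: Arg-ACG, whose first anticodon base is turned into inosine and which reads codons of the CGN box, Arg-TCG and Arg-CCG of the same box, and Arg-TCT and Arg-CCT, which read AGA and AGG. In mouse, one Arg-TCT gene is known to be expressed mainly in neurons. In the rat assembly GRCr8, RefSeq lists 30 arginine tRNA genes, of which 7 are ACG, 5 TCG, 8 TCT, 3 CCG and 7 CCT. Of these 30 genes, 22 have a length of 73 bases. A mature tRNA of 73 bases with the 3 bases of CCA ends at position 76, and all 10 of the 3' arginine fragments ended at 76 by their names. The gene labels in the fragment names (ACG-1, TCG-3 and so on) were not matched to RefSeq genes, so gene positions were not used here.

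The read totals behind the CPM values were 90828 to 128694 in nicotine libraries and 154414 to 374763 in saline libraries, so depth and treatment cannot be told apart. One read was worth 2.67 CPM in saline 1 and 11.0 CPM in nicotine 1, the extremes of depth. Arginine fragments had 2078, 1314 and 2410 reads in saline 1, 2 and 3 and 1080, 982 and 1969 reads in nicotine 1, 2 and 3. Of the 37 fragments, 25 had reads in all 6 libraries, 13 reached 20 CPM in all 6, and 16 had under 20 reads over all libraries. The level of 20 CPM was reached in 1 library alone by 10 fragments, and for 7 of these that library was nicotine 1. There 2 reads, worth 22.02 CPM, reach that level, while 2 reads in saline 1 were worth 5.34 CPM. These counts thus depend on depth. Nothing in the labels says more than that the libraries came from separately numbered rats, and intervals from reads cover counting error only.

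In every library the listed arginine reads came almost entirely from trailers. Trailers took 97.9%, 98.3% and 98.5% of the arginine reads after saline and 94.8%, 98.2% and 99.2% after nicotine. The share was lowest in nicotine 1 (95% Wilson interval 93.3% to 96.0%) and highest in nicotine 3 (98.7% to 99.5%). The group means were 98.3% ± 0.339 for saline and 97.4% ± 2.29 for nicotine (SD, n = 3 each), and the groups overlapped (exact two-sided permutation p = 0.8, where 0.1 is the smallest p that 3 against 3 libraries allow). The difference of -0.862 percentage points was 0.425 without nicotine 1.

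Among the other nuclear tRNA fragments, pooled, the same kind took 2.00% to 5.25% of the reads. Glycine weighs most in that pool, at a mean of 431289 CPM, and 0.167% of its reads were trailers. Over all libraries, single parents other than arginine ran from 0%, as for glutamate, to 97.8%, with asparagine at 63.6% and threonine at 40.4%. The arginine share exceeded that of the pool by 90.9 to 95.9 percentage points, in 6 of 6 libraries (exact sign-flip permutation p = 0.03125, adjusted over 3 comparisons p = 0.03125, the smallest that 6 libraries can give). Lysine, also a basic amino acid, had no listed nuclear trailer, and 98.4% to 99.6% of its reads were 5' fragments. Leucine, like arginine read by several anticodons, had trailers at 0.32% in nicotine 1 and at 0 reads in the other libraries, and 68.8% to 77.4% of its reads were 3' fragments. The trailer share of arginine lay above that of lysine and of leucine in 6 of 6 libraries. The same p was fixed in advance there, since lysine had no trailers and leucine almost none, so it adds no evidence. All 3 comparisons, that with the pool included, were chosen with the values known, so the p against the pool adds no evidence either. Only the initiator methionine tRNA, at 97.8% over all libraries against 98.1% for arginine, was as rich in trailers, and the next highest of 21 nuclear parents was elongator methionine at 86.7%, on a mean level of only 29.0 CPM.

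**Figure D1:**
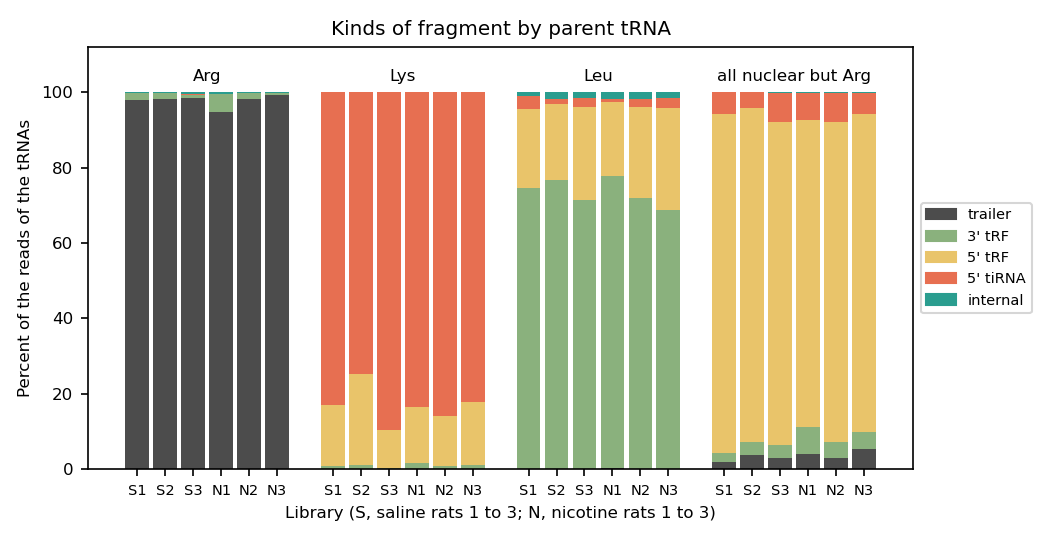
Stacked bars give the percent of reads in each kind of fragment (vertical axis) for every library (horizontal axis) and for 4 sets of parent tRNAs: arginine, lysine, leucine and all nuclear tRNAs but arginine. Arginine bars are filled by trailers at 94.8% to 99.2%, lysine bars by 5' fragments, leucine bars by 3' fragments.

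The trailers made arginine number 6 of 21 nuclear parents by mean level, at 10160 CPM. Arginine trailers made up 28.8%, 28.2% and 44.2% of all nuclear trailer reads in saline and 38.5%, 31.8% and 39.6% in nicotine libraries (exact two-sided permutation p = 0.8). After the trailers of 15 and 16 nt of the initiator methionine tRNA, the next 7 of 109 nuclear trailers by mean level were all from arginine tRNAs. By anticodon, Arg-ACG trailers (mean 7175 CPM) and Arg-TCG trailers (mean 2579 CPM) took ranks 2 and 3 of 28, behind initiator methionine at 12603 CPM.

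Almost all of these reads carried 3 gene labels. Trailers labelled Arg-ACG-1 took 62.7% to 64.9% of the arginine trailer reads in saline libraries, and 69.0%, 58.8% and 53.9% in nicotine 1, 2 and 3. Those labelled Arg-TCG-3 took 20.01%, 24.6% and 21.7% in saline and 22.6%, 30.7% and 31.7% in nicotine. Those labelled Arg-ACG-3 took 12.1%, 8.59% and 13.0% in saline and 6.25%, 5.81% and 12.0% in nicotine. The groups overlapped for all 3 labels (exact two-sided permutation p = 0.6, 0.2 and 0.2, and at least 0.6 after adjustment over 9 labels). The remaining labels, Arg-TCT-5, Arg-ACG-1-3, Arg-CCG-1, Arg-CCT-3, Arg-ACG-3-2 and Arg-TCG-1, each took at most 2.39% in any library.

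**Figure D2:**
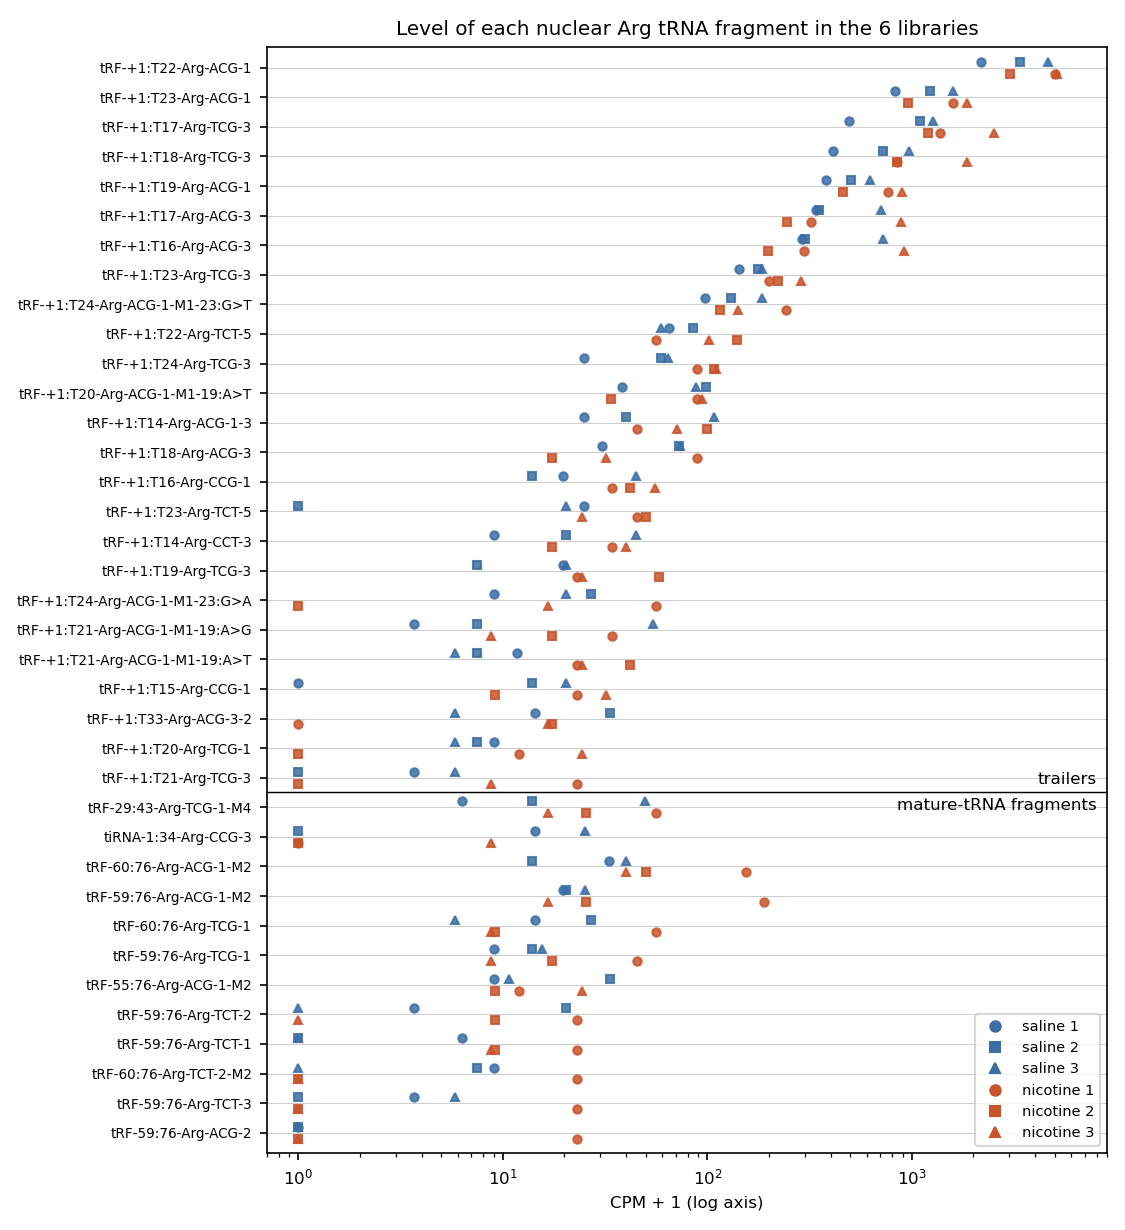
Each row is 1 of the 37 arginine fragments, named as in the files, and the horizontal axis gives CPM + 1 on a log scale, so a point at 1 stands for 0 reads. Blue points are the 3 saline and orange points the 3 nicotine libraries. By mean CPM, the trailers above the line run from 6.22 to 3892 and the mature-tRNA fragments below it from 3.67 to 54.3. The top trailers thus reach far higher levels, while the rarer ones overlap with the mature-tRNA fragments. Of the 10 3' fragments, 9 are highest in nicotine 1.

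The most abundant member was the 22 nt trailer of Arg-ACG-1, tRF-+1:T22-Arg-ACG-1. It had 2167, 3381 and 4646 CPM after saline and 4998, 3018 and 5144 CPM after nicotine. Nicotine 2 lay inside the saline range, and saline 1 was the lowest library. The log2 fold change, nicotine against saline on log2(CPM + 1), was 0.40 (SE 0.39), with an adjusted p of 0.828 in limma. It was 0.0054 after TMM rescaling, which scales the libraries by trimmed means, 0.11 without saline 1 and 0.66 without saline 3. The 23 nt form, tRF-+1:T23-Arg-ACG-1, had 825, 1230.5 and 1595 CPM in saline and 1585, 957 and 1865 CPM in nicotine libraries, and the 19 nt form, tRF-+1:T19-Arg-ACG-1, had 379, 505 and 626 CPM and 760, 458 and 894 CPM. In both, as in the 22 nt form, saline 1 was lowest and nicotine 3 highest.

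The proportions of the Arg-ACG-1 trailer lengths varied less between libraries than its level. Summed over its 8 listed forms it ranged from 3525 CPM in saline 1 to 8182 CPM in nicotine 3, a coefficient of variation over the 6 libraries of 30.7%. Of the reads of the forms without a suffix, the 22 nt form took 64.3% (95% Wilson interval 61.6% to 66.9%), 66.1% and 67.7% in saline and 68.1%, 68.1% (64.04% to 71.9%) and 65.1% in nicotine libraries. The coefficient of variation of that share was 2.45%, against 5.34% for the share of the 23 nt form and 8.04% for that of the 19 nt form. A share is bounded and a level is not, so these values and the 30.7% are unlike measures. The 23 nt form took 21.6% to 24.5% and the 19 nt form 9.11% to 11.3%, and no form of 20 or 21 nt was listed without a suffix. There were 2.76 ± 0.143 reads of 22 nt per read of 23 nt after saline and 3.02 ± 0.228 after nicotine (SD, n = 3 each), with overlap (exact two-sided permutation p = 0.2).

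Another 5 listed forms of this label carry a suffix of a position and a pair of bases, whose meaning the files do not state. Together they took 3.42% to 5.66% of the Arg-ACG-1 trailer reads. The largest, tRF-+1:T24-Arg-ACG-1-M1-23:G>T, had 96.1, 130 and 184 CPM in saline and 242, 114 and 140 CPM in nicotine libraries, with overlap. tRF-+1:T21-Arg-ACG-1-M1-19:A>T had 10.7, 6.48 and 4.85 CPM in saline and 22.02, 40.9 and 23.3 CPM in nicotine libraries. All 3 nicotine values of that form were higher, on 6 saline and 10 nicotine reads (log2 fold change 1.84, SE 1.02, limma adjusted p = 0.679).

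The trailer of Arg-TCG-3 was shorter. Its main form, tRF-+1:T17-Arg-TCG-3, had 491, 1094 and 1261 CPM in saline and 1365, 1194 and 2533 CPM in nicotine libraries. Saline 1 was lowest, nicotine 3 was highest, and nicotine 2 lay inside the saline range. The log2 fold change was 0.87 (SE 0.40, unadjusted p = 0.0330 and adjusted p = 0.657 in limma), the smallest unadjusted p among arginine members. It was 0.48 after TMM rescaling, 0.45 without saline 1 and 0.54 without nicotine 3. The 18 nt form, tRF-+1:T18-Arg-TCG-3, had 408, 725 and 970 CPM in saline and 848, 842 and 1849 CPM in nicotine libraries, again with overlap (log2 fold change 0.73, SE 0.39, limma adjusted p = 0.679, and 0.34 after TMM rescaling, 0.39 without saline 1 and 0.36 without nicotine 3).

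Longer forms of the same trailer were rarer. tRF-+1:T23-Arg-TCG-3 had 141, 175 and 184 CPM in saline and 198, 221 and 288 CPM in nicotine libraries, and tRF-+1:T24-Arg-TCG-3 had 24.02, 58.3 and 63.0 CPM and 88.1, 106 and 109 CPM. For both forms the 3 nicotine libraries lay above the 3 saline libraries. The log2 fold changes were 0.49 (SE 0.41) and 1.16 (SE 0.56), with adjusted p of 0.788 and 0.657 in limma. After TMM rescaling they were 0.097 and 0.77, and that of the 24 nt form was 0.72 without saline 1. The forms of 17 to 19 nt took 84.5% to 91.6% of the reads of this label and those of 21 to 24 nt took 8.401% to 15.5%, with overlap between groups. The 17 nt form took 45.2% (95% Wilson interval 40.4% to 50.1%) in saline 1 and 49.3% to 53.7% in the other libraries. Reads of 17 nt per read of 18 nt numbered 1.20, 1.51 and 1.30 in saline and 1.61, 1.42 and 1.37 in nicotine libraries.

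The trailer of Arg-ACG-3 had another order of libraries than the former labels. tRF-+1:T17-Arg-ACG-3 had 339, 350 and 708 CPM in saline and 319, 245 and 886 CPM in nicotine libraries, and tRF-+1:T16-Arg-ACG-3 had 288, 298 and 718 CPM and 297, 196 and 909 CPM. Saline 3 and nicotine 3 were high for both forms and the other 4 libraries low, so the groups overlapped. The log2 fold changes were -0.091 (SE 0.43) and -0.071 (SE 0.52) in limma, while the mean CPM was higher in nicotine libraries, at 483 against 466 and 468 against 435. With a library left out they ran from -0.64 to 0.28 and from -0.71 to 0.40, and after TMM rescaling they were -0.48 and -0.46, so neither has a stable direction. Forms of 16 and 17 nt were near equal, at 41.4% to 49.8% and 45.3% to 53.6% of the reads of this label. The remaining form, tRF-+1:T18-Arg-ACG-3, had 29.4, 71.2 and 72.7 CPM in saline and 88.1, 16.4 and 31.1 CPM in nicotine libraries (log2 fold change -0.57, SE 0.65, limma adjusted p = 0.853, and -0.95 after TMM rescaling, -1.21 without nicotine 1 and -0.027 without nicotine 2).

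**Figure D3:**
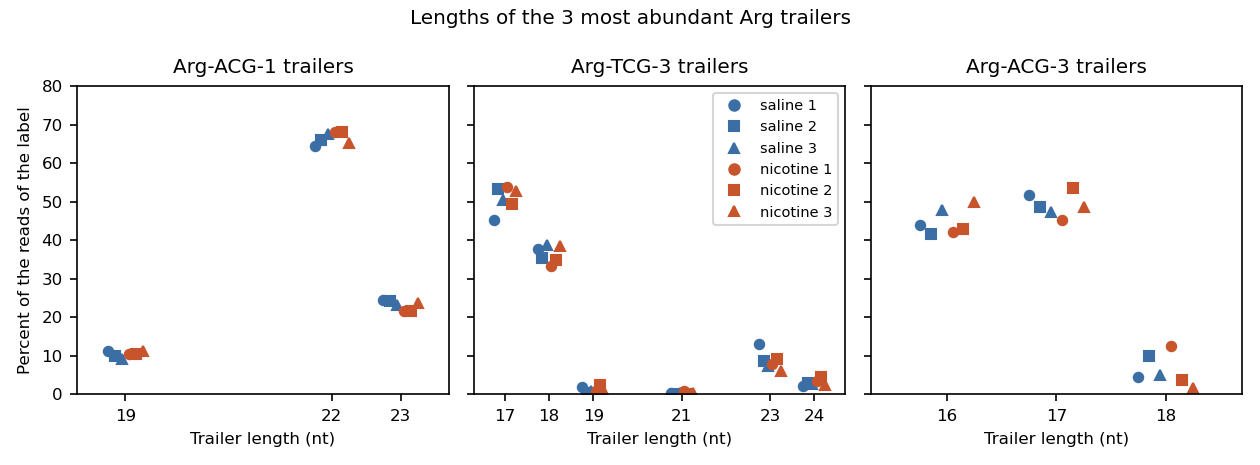
For the trailers labelled Arg-ACG-1, Arg-TCG-3 and Arg-ACG-3, points give the percent of that label's reads without a suffix (vertical axis) at each listed length in nt (horizontal axis), 1 point per library. Blue marks saline and orange nicotine; the 22 nt form of Arg-ACG-1 lies between 64.3% and 68.1% in all 6 libraries.

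Summed over anticodon, Arg-TCG trailers had 1094, 2066 and 2507 CPM in saline and 2554, 2421 and 4833 CPM in nicotine libraries. Nicotine 1 lay just above and nicotine 2 just below the highest saline library, and nicotine 3 lay far above both. The log2 difference was 0.80 (exact two-sided permutation p = 0.2), and 0.41 after TMM rescaling, which shifted the median of all fragments from 0.28 to -0.082. Tested as a family with limma it had an unadjusted p of 0.0443 and an adjusted p of 0.542. It was 0.45 without saline 1 and 0.48 without nicotine 3. Arg-ACG trailers had 4219, 6172 and 8825 CPM in saline and 8533, 5209 and 10094 CPM in nicotine libraries, with overlap. Their log2 fold change was 0.32 (SE 0.34) as deposited and -0.069 after rescaling by TMM, so its direction depends on the scaling.

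The ratio of both trailers within a library does not depend on the scaling. There were 25.9, 33.5 and 28.4 Arg-TCG trailer reads per 100 Arg-ACG trailer reads in saline, and 29.9, 46.5 and 47.9 in nicotine libraries. Nicotine 2 and 3 lay above all saline libraries, and nicotine 1 lay among them (exact two-sided permutation p = 0.2, and 0.3 adjusted over 3 ratios). As a share of arginine trailer reads, Arg-TCG took 22.2% ± 2.30 after saline and 28.4% ± 5.01 after nicotine (SD, n = 3 each). Nicotine 1 was at 22.7% (95% Wilson interval 20.2% to 25.3%), and nicotine 2 and 3 were at 30.7% (27.9% to 33.7%) and 31.8% (29.8% to 33.9%). The difference of 6.20 percentage points was 9.07 without nicotine 1 and 4.48 without nicotine 3.

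The other 3 anticodons had rare trailers. Arg-TCT trailers, 2 forms labelled Arg-TCT-5, had 88.1, 84.2 and 77.6 CPM in saline and 99.1, 188 and 124 CPM in nicotine libraries. All nicotine values were higher than all saline values, on 62 saline and 48 nicotine reads. The lowest nicotine value, in nicotine 1, rested on 9 reads worth 11.0 CPM each. The log2 fold change was 0.66 (SE 0.44, limma adjusted p = 0.542). It was 0.28 after TMM rescaling and 0.41 without nicotine 2. Its 22 nt form, tRF-+1:T22-Arg-TCT-5, had 64.04, 84.2 and 58.2 CPM in saline and 55.0, 139 and 101.0 CPM in nicotine libraries, with overlap. Its 23 nt form, tRF-+1:T23-Arg-TCT-5, had 24.02, 0 and 19.4 CPM and 44.0, 49.1 and 23.3 CPM. The log2 fold change of the 23 nt form was 2.25 (SE 1.02, adjusted p = 0.657), and 0.75 without saline 2, the library with 0 reads. Arg-CCG trailers had 18.7, 25.9 and 63.0 CPM in saline and 55.0, 49.1 and 85.5 CPM in nicotine libraries, mostly as tRF-+1:T16-Arg-CCG-1. Arg-CCT was listed by a single fragment, tRF-+1:T14-Arg-CCT-3, with 8.01, 19.4 and 43.6 CPM in saline and 33.0, 16.4 and 38.9 CPM in nicotine libraries. Both families overlapped between groups.

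**Figure D4:**
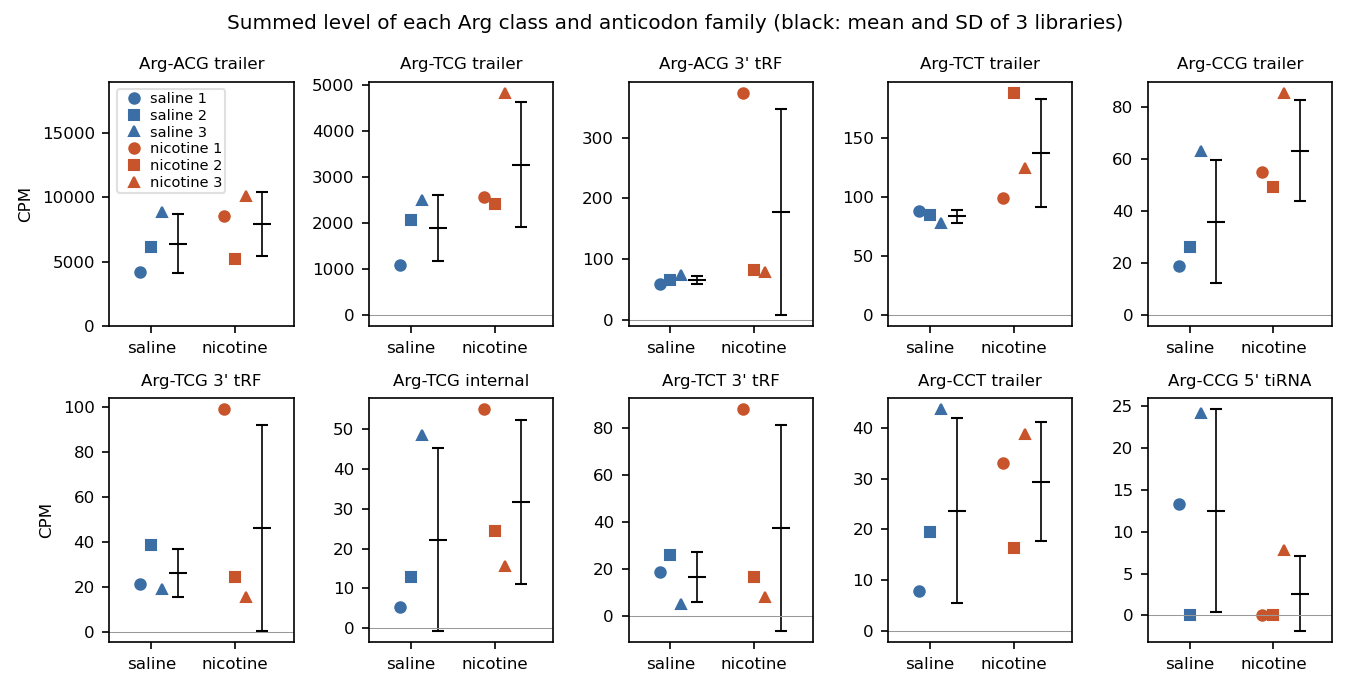
Each panel is 1 of the 10 arginine families, a kind of fragment from 1 anticodon, and the vertical axis gives its summed CPM with a scale of its own. Points are libraries (blue saline, orange nicotine) and black bars the mean and SD of 3. In CPM, nicotine 1 stands apart in the 3 panels of 3' fragments, at 374, 99.1 and 88.1 CPM. These are 34, 9 and 8 reads, against 22, 8 and 7 reads in the deeper saline 1.

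Fragments of the mature arginine tRNAs were rare, with 44, 22 and 35 reads in saline and 56, 18 and 16 reads in nicotine libraries. Their sum was 117, 142 and 170 CPM in saline and 617, 147 and 124 CPM in nicotine libraries. Nicotine 1 was over 3 times the next library, and the other nicotine libraries lay inside the saline range. The log2 difference of 0.66 (exact two-sided permutation p = 0.6) was -0.065 without nicotine 1. Nuclear 3' fragments of other tRNAs were also highest in nicotine 1, at 32765 CPM against 16120 to 23094 CPM in the other libraries; its part in the arginine values was not tested.

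The 3' fragments of Arg-ACG, which end in the CCA tail, were the largest mature family. They had 58.7, 64.8 and 72.7 CPM in saline and 374, 81.8 and 77.7 CPM in nicotine libraries, without overlap, on 47 saline and 54 nicotine reads. The closest pair was saline 3 and nicotine 3, and 1 read was worth 7.77 CPM in nicotine 3. The log2 fold change was 1.03 (SE 0.57, limma adjusted p = 0.542), 0.64 after TMM rescaling and 0.29 without nicotine 1. Its 17 nt form, tRF-60:76-Arg-ACG-1-M2, had 32.0, 12.95 and 38.8 CPM in saline and 154, 49.1 and 38.9 CPM in nicotine libraries. Nicotine 3 and saline 3 were almost level, at 5 and 8 reads (log2 fold change 1.36, SE 0.65, adjusted p = 0.657, and 0.76 without nicotine 1). The 18 nt form, tRF-59:76-Arg-ACG-1-M2, had 187 CPM in nicotine 1 and 15.5 to 24.5 CPM in the other 5 libraries.

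The remaining mature fragments had at most 10 reads in any library. The 3' fragments of Arg-TCG had 21.3, 38.9 and 19.4 CPM in saline and 99.1, 24.5 and 15.5 CPM in nicotine libraries, of which tRF-60:76-Arg-TCG-1 had 13.3, 25.9 and 4.85 CPM and 55.0, 8.18 and 7.77 CPM. Those of Arg-TCT had 18.7, 25.9 and 4.85 CPM in saline and 88.1, 16.4 and 7.77 CPM in nicotine libraries, in 4 forms of 4 to 7 reads each. The internal fragment tRF-29:43-Arg-TCG-1-M4, which spans the anticodon, had 5.34, 12.95 and 48.5 CPM in saline and 55.0, 24.5 and 15.5 CPM in nicotine libraries. Groups overlapped for all 3 families, and without nicotine 1 the log2 fold changes of both 3' families were below 0, at -0.36 and -0.24. In reads, these 2 families had 9 and 8 in nicotine 1 and 8 and 7 in saline 1. One fragment, tRF-59:76-Arg-ACG-2, had 2 reads, both in nicotine 1, which is under the 3 reads that a count of 0 allows.

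A 5' fragment was listed for Arg-CCG only. This tRNA-derived stress-induced RNA (tiRNA) of 34 nt, tiRNA-1:34-Arg-CCG-3, had 13.3, 0 and 24.2 CPM in saline and 0, 0 and 7.77 CPM in nicotine libraries, or 10 reads against 1. The ratio of nicotine to saline by pooled reads was 0.215, with an exact 95% counting interval of 0.00496 to 1.51. By contrast, 5' fragments took 88.7% to 95.6% of the pooled reads of the other nuclear tRNAs, and at most 0.241% of the arginine reads. Glycine weighs most in that pool, at a mean of 431289 CPM.

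As shares of the mature arginine reads, Arg-ACG took 22 of 44 reads, 45.5% and 42.9% in saline and 60.7%, 55.6% and 62.5% in nicotine libraries. All nicotine values were higher, with a difference of 13.5 percentage points (exact two-sided permutation p = 0.1, the smallest possible, and 0.4 adjusted over 4 anticodons). These shares rest on 16 to 56 reads per library, and the 95% Wilson intervals of the closest pair, 35.8% to 64.2% in saline 1 and 33.7% to 75.4% in nicotine 2, overlap widely. Arg-TCG took 33.0% ± 9.11 and 27.8% ± 4.81, Arg-TCT 12.3% ± 8.27 and 10.5% ± 4.05, and Arg-CCG 8.55% ± 7.55 and 2.08% ± 3.61 (SD, n = 3 each), all with overlap (exact permutation p = 0.4, 0.7 and 0.4). No mature fragment of Arg-CCT was listed.

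Over single fragments, 36 of the 37 members passed the filter on low values and 0 passed an adjusted p of 0.05 in limma, where 0.0% of all 586 tested fragments did. At an unadjusted p under 0.05 there were 4 members, all higher in nicotine, or 11.1%, against 7.0% of all tested fragments (5.12% higher and 1.88% lower in nicotine). After TMM rescaling there were 0, against 5.63% of all, and edgeR (13 members tested) and DESeq2 on recovered reads also gave 0 at that level and 0 after adjustment. The 4 were tRF-+1:T17-Arg-TCG-3, tRF-+1:T24-Arg-TCG-3, tRF-+1:T23-Arg-TCT-5 and tRF-60:76-Arg-ACG-1-M2. The groups did not overlap for 6 members (16.7%), all higher in nicotine, against 14.2% of all tested fragments in either direction and 12.6% in that direction (1.54% lower). Of those 6, 3 were trailers of Arg-TCG-3, which are length forms of the same trailer in the same libraries. The rarest, tRF-+1:T19-Arg-TCG-3, rested on 12 saline and 12 nicotine reads. The more abundant forms of 17 and 18 nt overlapped between groups. The log2 fold change was above 0 for 26 members (72.2%), against 64.5% of all, and after TMM rescaling for 22 (61.1%), against 43.9%. The median was 0.49 for the members and 0.28 for all fragments, and 0.12 and -0.082 after TMM rescaling.

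The members with a log2 fold change below 0 and the smallest unadjusted p, none near the threshold, were tiRNA-1:34-Arg-CCG-3, tRF-+1:T18-Arg-ACG-3, tRF-+1:T33-Arg-ACG-3-2, tRF-+1:T24-Arg-ACG-1-M1-23:G>A and tRF-60:76-Arg-TCT-2-M2. tRF-+1:T33-Arg-ACG-3-2, the longest trailer, had 13.3, 32.4 and 4.85 CPM in saline and 0, 16.4 and 15.5 CPM in nicotine libraries. tRF-+1:T24-Arg-ACG-1-M1-23:G>A had 8.01, 25.9 and 19.4 CPM and 55.0, 0 and 15.5 CPM, and its mean CPM was higher in nicotine libraries, at 23.5 against 17.8. tRF-60:76-Arg-TCT-2-M2 had 8.01, 6.48 and 0 CPM and 22.02, 0 and 0 CPM, and its mean CPM was also higher in nicotine libraries, at 7.34 against 4.83. For these 2 fragments the mean of log2(CPM + 1) alone was lower. Groups overlapped for all 5, and their smallest adjusted p was 0.848 in limma.

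**Figure D5:**
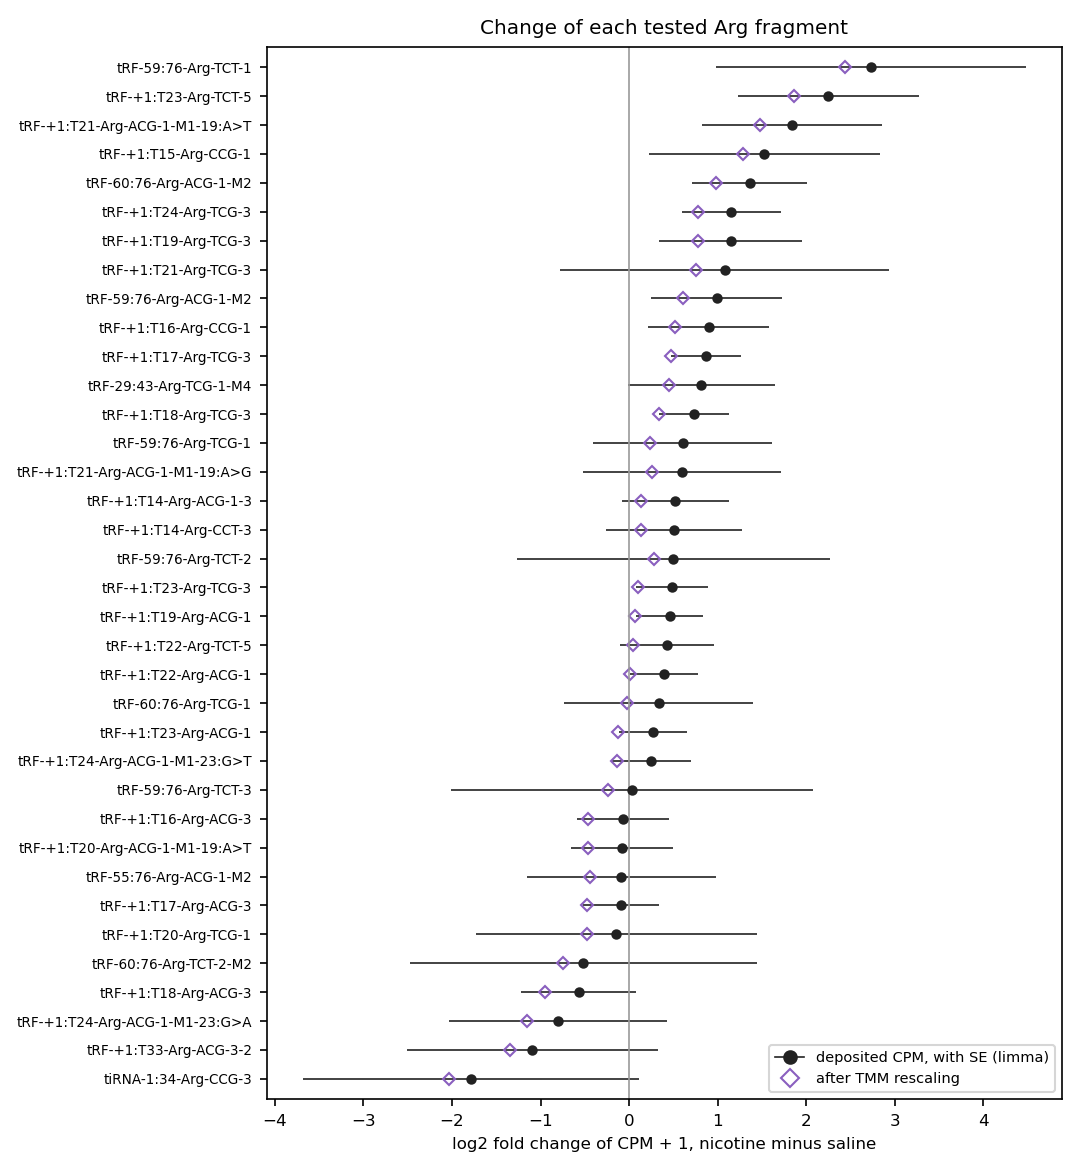
Black points give the log2 fold change of CPM + 1, nicotine minus saline, with its SE from limma (horizontal axis) for the 36 tested arginine fragments, and open diamonds the same after TMM rescaling. Before rescaling 26 lie above 0 and after it 22; values of members with few reads depend on the pseudocount.

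Over the 10 arginine families 0 passed an adjusted p of 0.05 in limma, as did 0.0% of all 172 tested families. At an unadjusted p under 0.05 there was 1, the Arg-TCG trailers (1 of 10 families), against 8.14% of all, and 0 after TMM rescaling, against 5.23%, and 0 by edgeR, which tested 4 of the families, or DESeq2. Groups did not overlap for the Arg-TCT trailers and the Arg-ACG 3' fragments, or 2 of 10 families, against 16.3% of all (15.7% higher and 0.581% lower in nicotine). The closest Arg-TCT trailer values were 99.1 CPM in nicotine 1, where 1 read was worth 11.0 CPM, and 88.1 CPM in saline 1. For the Arg-ACG 3' fragments they were 77.7 CPM in nicotine 3, where 1 read was worth 7.77 CPM, and 72.7 CPM in saline 3. Both separations thus rest on about 1 read. The log2 fold change was above 0 for 9 families, against 75.0% of all, and after TMM rescaling for 8, against 49.4%.

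In total, arginine fragments had 5545, 8510 and 11686 CPM in saline and 11891, 8031 and 15300 CPM in nicotine libraries. Saline 1 was lowest and nicotine 3 highest, and nicotine 2 lay below 2 of the 3 saline libraries. The log2 difference was 0.47 (exact two-sided permutation p = 0.4), 0.078 after TMM rescaling, and 0.19 to 0.72 with a library left out. Of the reads of nuclear fragments, arginine took 0.817%, 1.43% and 2.27% in saline and 2.54%, 1.43% and 3.36% in nicotine libraries. That is 1.51% ± 0.728 and 2.44% ± 0.967 (SD, n = 3 each), with overlap (exact two-sided permutation p = 0.3). Lysine took 3.55% ± 1.58 and 3.99% ± 0.511 (SD, n = 3 each), with overlap (exact permutation p = 0.6). The leucine groups, 0.696% ± 0.160 and 1.14% ± 0.302, did not overlap (exact permutation p = 0.1, n = 3 each).

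The course of the arginine sum over the 6 libraries was most like that of the serine, aspartate and threonine tRNA fragments. Their root mean square differences from arginine were 0.173, 0.196 and 0.197 on the centred log2(CPM + 1) scale, the smallest of 20 other nuclear parents. The centred arginine values were -0.80, -0.18 and 0.28 in saline and 0.30, -0.26 and 0.67 in nicotine libraries. Those of serine were -0.84, -0.16 and 0.24 in saline and 0.17, 0.095 and 0.49 in nicotine libraries. Trailers made up 25.6%, 24.3% and 40.4% of the reads of these 3 parents.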

How the data were processed

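Small RNA of rat hippocampus, from 3 animals given saline and 3 given nicotine, was ligated to adapters, amplified and size-selected on a gel, per the labels' protocols. Per the submitters' processing notes FastQC, cutadapt and Bowtie were used; neither these notes nor the labels give versions, a build or the source of the tRNA names. The authors deposited CPM for 615 fragments. Headers of 2 of the 6 files lack a unit, and the values themselves show CPM there. All values (100%) were whole multiples of 1 read within 0.001 reads, so reads and totals were recovered. Near-identical tRNA copies share reads, so the split between gene labels is uncertain for mature fragments.

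Kinds were assigned from the position in each name. Limma 3.58.1 (trend, robust; R 4.3.3) was fitted to log2(CPM + 1) of all fragments, or families summed over kind and anticodon, with 1 CPM or more in 3 or more libraries, with Benjamini-Hochberg adjustment over all tested. Sums and shares had exact permutation tests (scipy 1.17.1). Shares carry 95% Wilson intervals; a count of 0 allows 3 reads. edgeR 4.0.16 and DESeq2 1.42.0 on recovered reads, TMM, pseudocounts of 0.5 and 10, filters, a replicate block and leaving out each library were alternatives. Limma was checked on reads simulated with the same spread for all fragments and no shared library effects, so that check does not cover the spread of these replicates. Replicates differed beyond counting error (chi-square per degree of freedom 11.9 to 24.4). Named were the most abundant member of each family and the 5 members per direction with the smallest unadjusted p; others were added after their values were seen. Members, lists and the added composition measures were chosen with earlier results of these data known. Sequences of the fragments were not used here.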

Additional observations from a re-analysis of the deposited data

How the results depend on the processing

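No arginine fragment or family passed an adjusted p of 0.05 under any alternative run (0 in each). Of 11 main results, 100 recomputed values kept direction and side of the threshold and 5 reversed, all with a library left out, where the differences ran from -0.065 to 1.08 (log2) for the mature sum, -1.76 to 0.425 percentage points for the trailer share and -6.50 to 1.17 for the Arg-TCT share of mature reads. The Arg-ACG trailer family turned to -0.069 after TMM rescaling, -0.15 with edgeR and -0.074 with DESeq2. Single reversals were -0.027 after TMM rescaling for tRF-60:76-Arg-TCG-1, 0.036 and 0.012 with DESeq2 for tRF-+1:T24-Arg-ACG-1-M1-23:G>A and tRF-60:76-Arg-TCT-2-M2, 0.037 with a pseudocount of 10 for the latter, and -0.025 with DESeq2 for the Arg-CCT family.

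With a library left out, log2 fold changes ran from -0.076 to 1.08 for tRF-+1:T14-Arg-CCT-3 and its family, -2.07 to 0.84 for tRF-+1:T24-Arg-ACG-1-M1-23:G>A, -1.79 to 0.27 for tRF-+1:T33-Arg-ACG-3-2, -0.54 to 1.79 for tRF-59:76-Arg-TCT-2, -0.55 to 0.85 for tRF-60:76-Arg-TCG-1, -1.53 to 0.24 for tRF-60:76-Arg-TCT-2-M2, -0.36 to 0.94 for the Arg-TCG and -0.24 to 1.43 for the Arg-TCT 3' family. The causes were not tested.

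The labels state no pairing by rat number, and whether the numbers pair the libraries was not settled here. The deviations of same-numbered libraries correlated at 0.0867, 0.109 and 0.161, and each library correlated best with its own number. Those of differently numbered libraries correlated at -0.104 to -0.0051. With the number as a replicate block, 0 arginine fragments and 0 families passed, 4 members and 1 family had an unadjusted p under 0.05, and the exact p was 0.25 for the Arg-TCG trailer sum and 0.5 for the total, where 0.25 is the smallest possible. The members at an unadjusted p under 0.05 numbered 4, 1 with the filter of 20 CPM, 0 after TMM rescaling, and 2 to 5 with a library left out. Depth limits the mature fragments, at 16 to 56 reads per library.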
